A study of Mus musculus with 4 samples.

Results

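ATF4, together with its relatives, its binding partners and a set of its best known target genes, makes up 10 genes of the integrated stress response: Atf4, Atf5, Cebpb, Cebpg, Ddit3, Nupr1, Trib3, Ppp1r15a, Chac1 and Asns. They were taken as a list of symbols that was chosen with earlier results of these data known. Shares set beside those of all genes therefore describe the list and are no independent test of it. The symbols were found by Ensembl ID in a table of 54232 mouse genes. All 10 were found there once each, are protein-coding, and passed the filter on low counts, which 16749 genes passed. Their transcripts were measured by bulk RNA sequencing in the RPP631 line of small cell lung cancer (SCLC), derived from mouse. One group was exposed to 100 nM YKL for 48 h, a compound that the series title calls a CDK7 inhibitor, and the other was kept in DMSO, the solvent, for the same time. Each group had 2 libraries. CDK7 is a kinase of the transcription machinery and of the cell cycle. The labels give neither the genotype of RPP631 nor whether the 2 libraries of a group came from separate cultures, so each p-value speaks of the spread between these libraries alone, which may be technical. The single line is the only model here.

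In the integrated stress response, a family of kinases that sense amino acid shortage, unfolded protein, haem shortage or double-stranded RNA phosphorylates the translation factor eIF2. General translation then slows, while the Atf4 mRNA is translated more through its upstream reading frames. The ATF4 protein pairs with members of the C/EBP family and switches on genes for amino acid synthesis, amino acid uptake and tRNA charging, along with feedback genes that end the response. The counts describe mRNA only, so they show neither ATF4 protein nor eIF2 phosphorylation. In bulk RNA, fewer cells with a transcript and less transcript per cell cannot be told apart.

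Sites that ATF4 is known to bind were looked for, and as a separate motif the core of the unfolded protein response element. The C/EBP-ATF response element (CARE), the letters TGATGNAA on either strand, was searched from 250 bases before to 50 bases after the start of each RefSeq gene (GRCm38.p6). It occurred in Asns, Chac1, Nupr1 and Trib3, that is in 4 of the 10 genes. Of all 27025 genes with a window it occurred in 4.51%, and of all 32851 windows in 3.97%. The cyclic AMP response element, TGACGTCA, occurred in Ppp1r15a, and in 2.03% of genes (1.79% of windows). The core of the unfolded protein response element, TGACGTGG, occurred in none of the 10 and in 0.714% of genes (0.676% of windows). A match is a description and not a measured binding site. The windows of Atf4, Atf5, Cebpb, Cebpg and Ddit3 held none of these letters, from which nothing follows about the factors. The 5 matches are shown with 30 bases of context, 5′ to 3′ on the strand of the gene, with the matched letters in capitals.
Asns: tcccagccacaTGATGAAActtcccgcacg
Chac1: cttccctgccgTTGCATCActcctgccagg
Nupr1: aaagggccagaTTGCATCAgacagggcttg
Trib3: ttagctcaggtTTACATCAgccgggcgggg
Ppp1r15a: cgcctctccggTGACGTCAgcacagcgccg
The matches in Chac1, Nupr1 and Trib3 read on the opposite strand. Chac1 and Nupr1 hold the same 8 letters, TTGCATCA. The Asns stretch lies at chr6:7693214-7693243 on the minus strand, the Chac1 stretch at chr2:119351038-119351067 on the plus strand, and the Nupr1 stretch at chr7:126625562-126625591 on the minus strand. The Trib3 stretch lies at chr2:152344028-152344057 and the Ppp1r15a stretch at chr7:45526262-45526291, both on the minus strand. Counted from the RefSeq start, the match begins at -23 in Asns, -193 in Chac1, -110 in Nupr1, 15 in Trib3 and -12 in Ppp1r15a. By the exons of the count table, the Asns and Nupr1 matches fall inside an annotated exon and the other 3 outside one.

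Chac1 was one of the 4 genes that fell, and its match lay the farthest upstream of the 5, so its upstream sequence is given from -250 to -14 (chr2:119350992-119351228, plus strand, ending at the base before the first exon of the count table), with the match in capitals.
Chac1 upstream: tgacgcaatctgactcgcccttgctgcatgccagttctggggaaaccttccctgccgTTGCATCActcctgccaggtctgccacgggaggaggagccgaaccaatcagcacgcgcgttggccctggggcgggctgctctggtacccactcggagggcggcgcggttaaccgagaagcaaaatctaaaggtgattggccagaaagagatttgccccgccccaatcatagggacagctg

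The libraries were similar in depth, at 29817387 to 34189709 counts assigned to genes. The DMSO libraries differed more from each other than the YKL libraries did (chi-square per degree of freedom 37.1 for the YKL pair and 86.6 for the DMSO pair), and the second principal component, with 30.7% of the variance, set them apart from each other. Mitochondrially encoded transcripts took 1.25% and 1.78% of counts in YKL and 1.01% and 1.14% in DMSO. The neuroendocrine markers Insm1, Chga, Syp, Ncam1, Calca and Uchl1 were each detected in every library, the lowest value being 178 CPM for Syp in a DMSO library (CPM being the standard unit of counts relative to library size, here scaled by TMM). Markers of other cells were low apart from the fibroblast marker Pdgfra. It had 43.1 and 17.6 CPM in YKL and 11.5 and 23.1 CPM in DMSO, most of the fibroblast sum in each library. The 5 fibroblast markers summed to 18.1 to 44.7 CPM in YKL and 12.7 to 25.2 CPM in DMSO, the 5 immune markers to 5.18 to 8.16 CPM in YKL and 3.11 to 4.98 CPM in DMSO, and the 4 endothelial markers to at most 4.08 CPM in any library. Of the immune markers Cd3e was at 0 in every library, and Ptprc was called higher from 25 and 23 counts in YKL and 0 and 2 counts in DMSO (adjusted p = 0.0392). What part these differences had in the results was not tested.

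After exposure to YKL, 4 of the 10 transcripts fell. Asns, Trib3, Chac1 and Atf5 were lower by 1.79-fold to 2.63-fold, and Cebpb stood apart with a level that overlapped between the groups. In 9 of the 10 genes both YKL libraries lay below both DMSO libraries, as they did in 25.3% of all genes tested. The 4 that fell by edgeR's quasi-likelihood test at a Benjamini-Hochberg adjusted p under 0.05 compare with 1.44% of all genes called lower, and none of the 10 was among the 2.1% called higher. The median log2 fold change of the 10 was -0.90, against -0.00014 over all genes tested. At an unadjusted p under 0.05, 9 were lower and 0 higher, against 9.9% of all genes tested that were lower at that threshold and 11.3% that were higher. By the authors' deposited table, 9 of the 10 were lower at an adjusted p under 0.05, as were 13.9% of its 15936 genes. Together the 10 genes took 0.0846% and 0.0737% of all counts in YKL and 0.168% and 0.145% in DMSO.

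**Figure D1:**
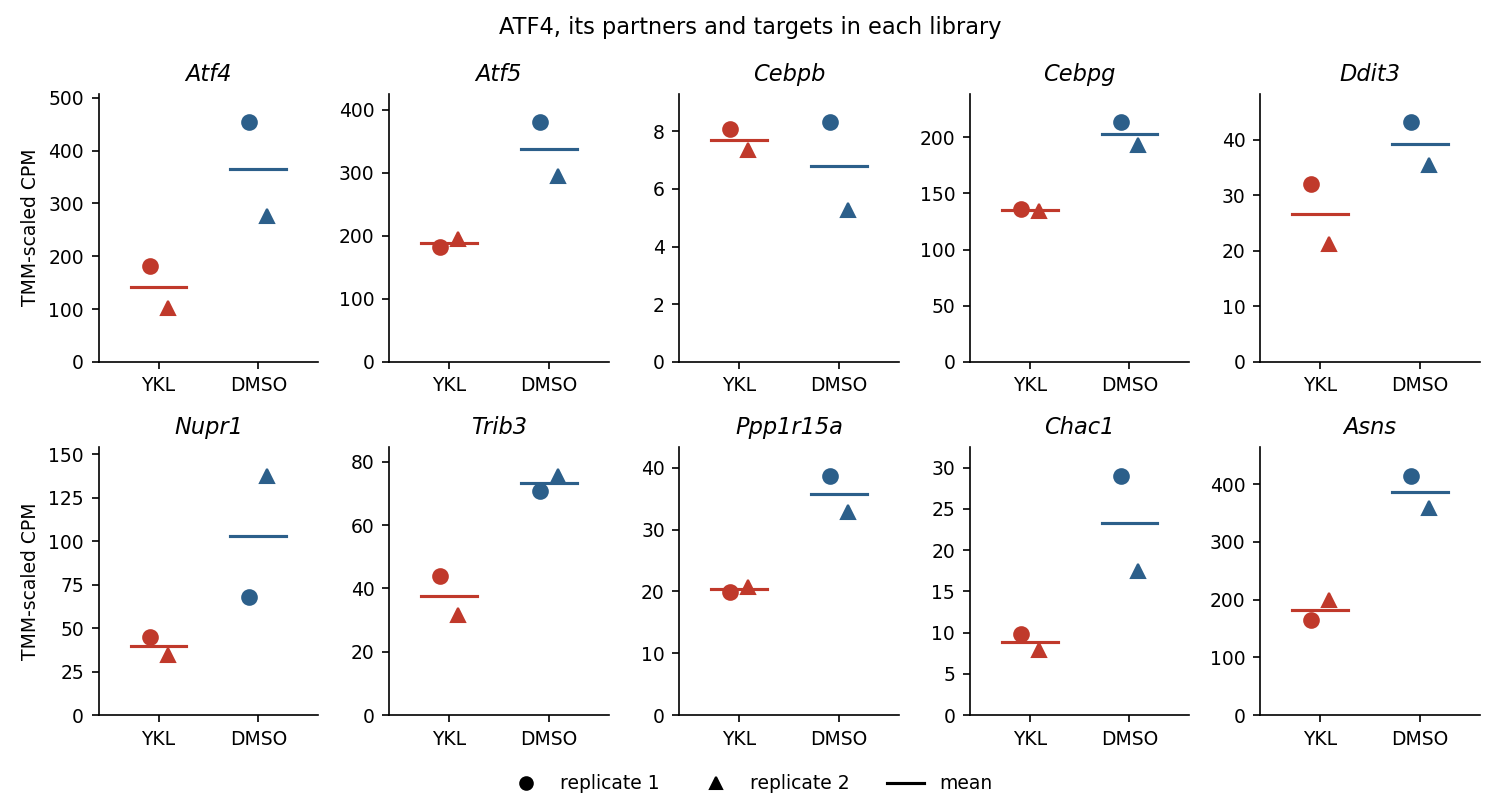
Level of each of the 10 genes in each library, as TMM-scaled CPM on an axis that starts at 0, with YKL left of DMSO. Circles are replicate 1, triangles replicate 2 and lines the mean of 2 libraries; in every panel but that of Cebpb, both YKL libraries sit below both DMSO libraries.

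Atf4 itself, which encodes the central transcription factor of the response (ENSMUSG00000042406, chromosome 15, 80255184 to 80257541, mm10), had 182 and 103 CPM in YKL replicates 1 and 2, against 454 and 275 CPM in DMSO replicates 1 and 2. These rest on 5580 and 3303 counts in YKL and 15176 and 8679 counts in DMSO. The groups did not overlap, but within each group replicate 1 was well above replicate 2, by 1.78-fold in YKL and by 1.65-fold in DMSO. The means were 142 ± 56.3 CPM in YKL and 364.5 ± 126 CPM in DMSO (SD, n = 2 each), a log2 fold change of -1.36 ± 0.35 (standard error) that missed the threshold at an adjusted p of 0.0998. With all libraries kept, it passed by DESeq2 (adjusted p = 0.000626), and by edgeR with a block for the replicate number (0.00048) or without the filter (6.51e-08). It missed with other scalings, a stricter filter, a prior that is not robust or protein-coding genes alone (edgeR, adjusted p from 0.0799 to 0.1125). It passed when either DMSO replicate 2 (-1.71, adjusted p = 4.52e-11) or YKL replicate 1 (-1.83, adjusted p = 0.0457) was left out. Without DMSO replicate 1 it was -0.95 (adjusted p = 0.0994) and without YKL replicate 2 it was -1.005 (adjusted p = 0.263), neither of which passed.

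Atf5, a close relative of Atf4 whose mRNA is also under translational control by stress (ENSMUSG00000038539, chromosome 7, 44812256 to 44816658), had 183 and 195 CPM in YKL, against 380 and 296 CPM in DMSO. The YKL libraries lay close together and below both DMSO libraries. Atf5 fell 1.79-fold (log2 fold change -0.84 ± 0.19, adjusted p = 0.0466). The call ended without DMSO replicate 1 (adjusted p = 0.0603), YKL replicate 1 (0.273) or YKL replicate 2 (0.227). Of the exonic bases of Atf5, 4.11% are shared with Nup62 on the other strand, itself at a log2 fold change of -0.70 (adjusted p = 0.0871), and the counting is not stated to use strand.

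Among the partners, Cebpg and Cebpb encode C/EBP proteins that can pair with ATF4. Cebpg (ENSMUSG00000056216, chromosome 7, 35046422 to 35056573) had 136 and 134 CPM in YKL, against 213 and 193 CPM in DMSO. Its libraries agreed most closely of the 10 genes in YKL, differing 1.01-fold, and its log2 fold change was modest, at -0.59 ± 0.18 with an adjusted p of 0.0973. It was called without DMSO replicate 2 (-0.69, adjusted p = 0.0258) and in no other fit with a library left out (adjusted p from 0.140 to 0.450).

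Cebpb (ENSMUSG00000056501, chromosome 2, 167688915 to 167690418) had 8.06 and 7.36 CPM in YKL, against 8.31 and 5.27 CPM in DMSO. Both YKL values lay between the DMSO values. The log2 fold change was 0.18 ± 0.37 (adjusted p = 0.831), with a 95% interval from -0.64 to 1.01 that leaves room for a change in either direction. Its sign turned without DMSO replicate 2 (-0.14). A stretch of 312 exonic bases, 20.7% of Cebpb, is shared with Tmem189 on the other strand, which had 49.2 and 44.4 CPM in YKL and 30.1 and 28.2 CPM in DMSO (log2 fold change 0.68 ± 0.20, adjusted p = 0.0897). The part of Tmem189 reads in the Cebpb counts was not tested.

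Ddit3 encodes CHOP, the factor that ATF4 induces in prolonged stress and that promotes cell death (ENSMUSG00000025408, chromosome 10, 127290774 to 127296288). It had 32.0 and 21.2 CPM in YKL, against 43.2 and 35.5 CPM in DMSO. Here the gap between groups was narrow: the higher YKL library reached 90.3% of the lower DMSO library. The log2 fold change of -0.56 ± 0.25 missed the threshold (adjusted p = 0.231) and passed it when DMSO replicate 2 was left out (-0.73, adjusted p = 0.0408). With YKL replicate 2 left out it was -0.30 (adjusted p = 0.777). Of the exonic bases of Ddit3, 3.97% are shared with Mars on the other strand, itself at a log2 fold change of -0.74 (adjusted p = 0.0543).

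Nupr1, a small stress-induced chromatin protein and ATF4 target (ENSMUSG00000030717, chromosome 7, 126623249 to 126630861), had 45.0 and 34.9 CPM in YKL, against 68.2 and 138 CPM in DMSO. It was the only gene of the 10 in which DMSO replicate 2 was far above DMSO replicate 1, at 2.02-fold. The log2 fold change of -1.37 ± 0.35 had an adjusted p of 0.0892, and was -1.79 without DMSO replicate 1 (adjusted p = 2.07e-05) and -0.81 without DMSO replicate 2 (adjusted p = 0.0118). It was not called without YKL replicate 1 (-1.56, adjusted p = 0.248) or YKL replicate 2 (-1.20, adjusted p = 0.390). Named after their values were seen, Vegfa, Ero1l, Ndrg1 and Ddit4, which respond to hypoxia as well as to other stresses, were also higher in DMSO replicate 2 than in DMSO replicate 1, by 5.52-fold, 5.11-fold, 4.31-fold and 2.81-fold. The part of that library difference in the Nupr1 values was not tested.

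Of the feedback genes, Trib3 fell and Ppp1r15a missed the threshold. Trib3 (ENSMUSG00000032715, chromosome 2, 152337422 to 152344032), a pseudokinase that binds ATF4 and CHOP and restrains them, had 43.8 and 31.8 CPM in YKL, against 70.6 and 75.7 CPM in DMSO. The DMSO libraries agreed within 1.07-fold. Trib3 fell 1.94-fold (log2 fold change -0.95 ± 0.21, adjusted p = 0.0411), a call that ended without YKL replicate 1 (adjusted p = 0.0805) or YKL replicate 2 (0.291).

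Ppp1r15a encodes GADD34, the phosphatase subunit that reverses eIF2 phosphorylation (ENSMUSG00000040435, chromosome 7, 45522916 to 45526268). It had 19.97 and 20.7 CPM in YKL, against 38.7 and 32.8 CPM in DMSO. The libraries within each group were close and the groups did not overlap. Its log2 fold change of -0.81 ± 0.22 had an adjusted p of 0.0719, and it was called without DMSO replicate 2 (-0.96, adjusted p = 0.00616) and in no other fit with a library left out (adjusted p from 0.105 to 0.353).

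Chac1 and Asns are downstream enzymes. Chac1 (ENSMUSG00000027313, chromosome 2, 119351229 to 119354381), which breaks down glutathione, had 9.82 and 7.88 CPM in YKL, against 29.1 and 17.5 CPM in DMSO, from 301 and 254 counts in YKL and 972 and 550 counts in DMSO. The higher YKL library was at 56.3% of the lower DMSO library. Chac1 fell 2.63-fold (log2 fold change -1.39 ± 0.32, adjusted p = 0.0462). The call ended without DMSO replicate 1 (-0.98, adjusted p = 0.0634), YKL replicate 1 (0.152) or YKL replicate 2 (0.26).

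Asns (ENSMUSG00000029752, chromosome 6, 7675169 to 7693254), the asparagine synthetase gene and a standard reporter of ATF4 activity, had 164 and 199 CPM in YKL, against 415 and 359 CPM in DMSO. The groups were the farthest apart of the 10, with the higher YKL library at 55.3% of the lower DMSO library. Asns fell 2.13-fold (log2 fold change -1.09 ± 0.19), with the smallest adjusted p of the 10 (0.0223). Its call ended without YKL replicate 1 (adjusted p = 0.165) or YKL replicate 2 (0.0887).

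**Figure D2:**
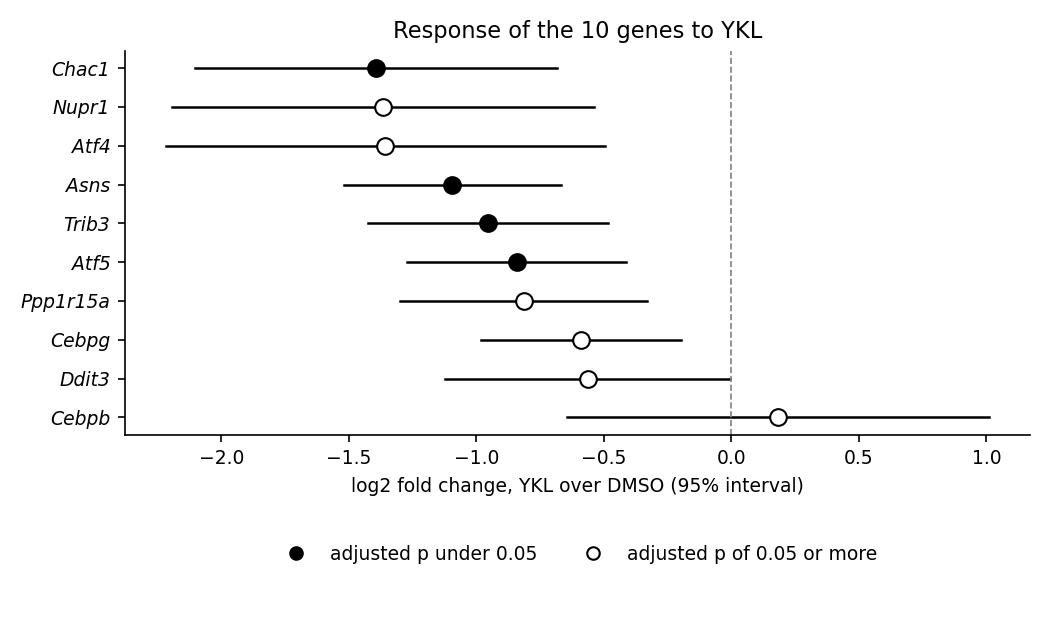
Log2 fold change of each gene, YKL over DMSO, with its 95% interval. Filled circles are the 4 genes called at an adjusted p under 0.05, open circles the other 6; the interval of Cebpb spans 0, that of Ddit3 ends just below it, and the other 8 end farther below.

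The number of these genes called depended on single libraries. It was 3 without DMSO replicate 1 and 9 without DMSO replicate 2, the exception in that fit being Cebpb, and 1 without YKL replicate 1 and 0 without YKL replicate 2. The share of all genes called lower moved in the same fits, to 3.83%, 6.06%, 0.274% and 0.108%. With all libraries, DESeq2 called 7 of the 10 lower, as it did 4.88% of the 14435 genes it tested. With any library left out, the log2 fold change was below 0 for 9 of the 10. Without DMSO replicate 2 it was below 0 for all 10. In these 9 genes the groups did not overlap, so the sign was all but fixed in advance and adds no support. The sizes moved with a library left out: Atf4 ran from -1.83 to -0.95 and Nupr1 from -1.79 to -0.81. Ddit3 ran from -0.89 to -0.30 and Cebpg from -0.69 to -0.51. With 2 libraries a group there are 3 ways to pair the libraries, and no exact permutation test of a single gene could go below a two-sided p of 0.333.

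**Figure D3:**
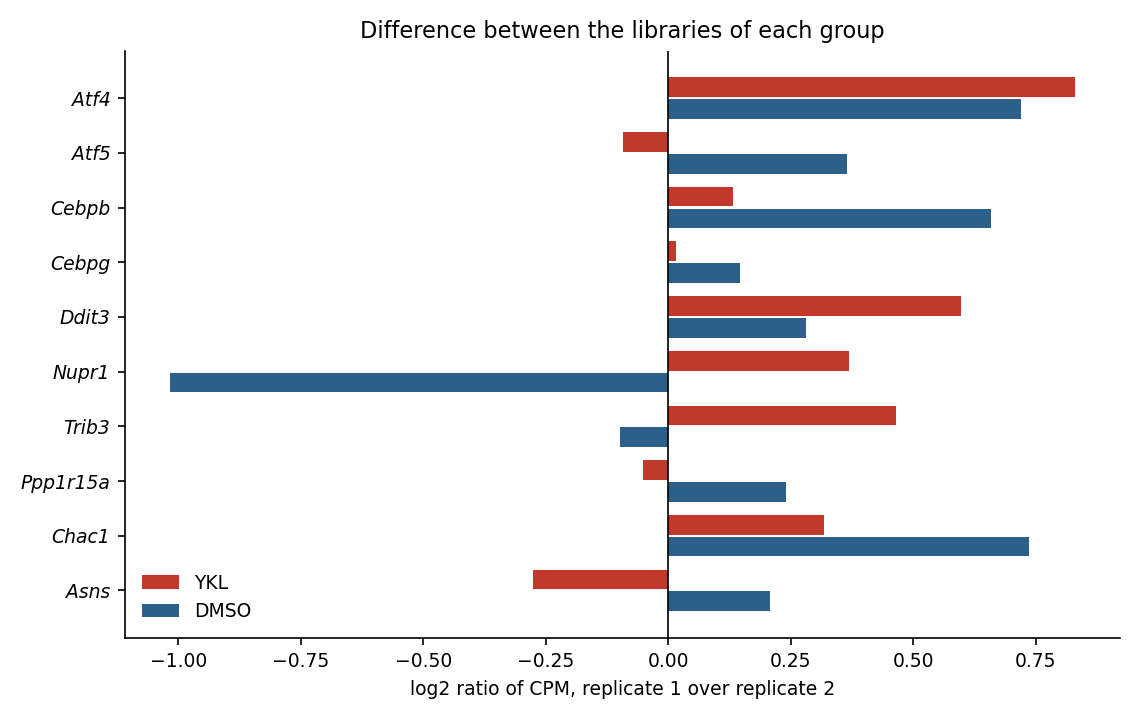
Log2 ratio of replicate 1 to replicate 2 for each gene, within YKL (red) and within DMSO (blue). Atf4 is higher in replicate 1 of both groups, at 0.83 in YKL and 0.72 in DMSO, while Nupr1 is 0.37 in YKL and -1.02 in DMSO.

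The genes differed in which library was the higher of a pair. Replicate 1 was the higher YKL library for Atf4, Ddit3, Trib3, Nupr1, Chac1, Cebpb and Cebpg and the lower for Asns, Atf5 and Ppp1r15a. In DMSO, replicate 1 was the higher for all but Nupr1 and Trib3. Over 4 libraries the profile of Atf4, taken as the deviation of log2 CPM from its own mean, was matched most closely by Chac1 among the other 9, at rank 16 of the 11542 genes that averaged 5 CPM or more (Euclidean distance 0.36). Trib3, at rank 177, was next and Cebpb, at rank 6492, was last. The 5 genes of the whole table nearest to Atf4 were Pink1, Hnrnpdl, Ska1, Gcnt3 and Aspm, at distances from 0.18 to 0.25. Ska1 was called lower (log2 fold change -1.36, adjusted p = 0.0395), whereas Pink1 (-1.28, adjusted p = 0.0519), Hnrnpdl (-1.23, adjusted p = 0.182), Gcnt3 (-1.32, adjusted p = 0.153) and Aspm (-1.55, adjusted p = 0.0814) were not. With 4 libraries this measure describes likeness only.

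Divided by the length of all annotated exons, which allows a rough comparison of levels between genes, Atf5, Atf4 and Asns were the most abundant. Which of the annotated exons these cells use was not tested. In DMSO they averaged 170 CPM per kb, 155 CPM per kb and 142 CPM per kb, and their library ranges overlapped from neighbour to neighbour. Nupr1, Cebpg and Trib3 followed in DMSO at 41.0 CPM per kb, 36.1 CPM per kb and 34.4 CPM per kb, also overlapping as neighbours. Ddit3 came next at 23.0 CPM per kb, separate from the genes above and below it, then Chac1 and Ppp1r15a at 14.2 CPM per kb and 12.2 CPM per kb, overlapping, and Cebpb was lowest at 4.51 CPM per kb. In YKL the level was 94.6 CPM per kb for Atf5, 66.3 CPM per kb for Asns and 60.4 CPM per kb for Atf4, while Cebpb, at 5.13 CPM per kb, came close to Chac1 at 5.41 CPM per kb.

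The authors' deposited table gives the log2 fold change of Atf4 as -1.24 (adjusted p = 3.84e-08), that of Asns as -1.05 (adjusted p = 2.36e-08) and that of Nupr1 as -1.16 (adjusted p = 3.62e-06). In the authors' deposited table Cebpb is again the exception, at 0.17 (adjusted p = 0.609), and Ddit3 has the least small adjusted p of the rest, at 0.0126.

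Other known targets of ATF4 were read from the same test, in lists of 51 genes that had all passed the filter. Of these 51, 15 fell and 1 rose, against the 1.44% and 2.1% of all genes called lower and higher. They had a median log2 fold change of -0.71 against -0.00014 over all genes tested, and in 33 both YKL libraries were below both DMSO libraries (64.7%, against the 25.3% of all genes). How many were called depended on which library was left out. In those fits their median log2 fold change ran from -0.85 without DMSO replicate 2 to -0.58 without DMSO replicate 1. The medians over all genes in the same fits were 0.019 and 0.011.

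Of 13 enzymes of amino acid and one-carbon synthesis 6 fell and 0 rose (also 0 higher at an unadjusted p under 0.05), with a median of -0.89. Phgdh, the first enzyme of serine synthesis, had 4.47 and 5.03 CPM in YKL, against 18.6 and 18.6 CPM in DMSO (3.91-fold lower, adjusted p = 0.0141). Aldh18a1 and Pycr1, both of proline synthesis, fell at log2 fold changes of -1.58 and -1.24. Gpt2 and Got1, which are aminotransferases, and Shmt2, which makes glycine from serine in mitochondria, fell at -1.42, -1.11 and -0.84. Only the call of Aldh18a1 held with each library left out. Those of the other 5 ended without YKL replicate 1 (adjusted p from 0.0501 for Gpt2 to 0.291 for Shmt2) and without YKL replicate 2 (adjusted p from 0.0537 for Gpt2 to 0.194 for Got1).

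Of 9 amino acid transporter genes 4 fell and 1 rose, with a median of -0.78. The cystine transporter gene Slc7a11 had 2.12 and 2.20 CPM in YKL, against 16.5 and 10.9 CPM in DMSO, a log2 fold change of -2.66. The glycine transporter gene Slc6a9, the cationic amino acid transporter gene Slc7a3 and the neutral amino acid transporter gene Slc1a4 fell at -2.03, -1.82 and -1.22. The calls of Slc6a9 and Slc7a3 held with each library left out, whereas those of Slc7a11 and Slc1a4 ended without YKL replicate 1 (adjusted p = 0.0593 and 0.0897) and without YKL replicate 2 (adjusted p = 0.0650 and 0.124). Slc1a5, which encodes a glutamine transporter, went the other way: it had 138 and 163 CPM in YKL, against 79.2 and 92.2 CPM in DMSO (log2 fold change 0.81 ± 0.19, adjusted p = 0.0496). That call ended without DMSO replicate 1 (adjusted p = 0.0525), YKL replicate 1 (0.148) or YKL replicate 2 (0.317).

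Of 13 genes for tRNA charging and tRNA export all had a log2 fold change below 0, with a median of -0.74, and 3 fell, the synthetase genes Iars, Cars and Lars at -1.31, -1.30 and -1.10. These calls ended without YKL replicate 2 (adjusted p = 0.0747, 0.0981 and 0.120), and that of Lars also without YKL replicate 1 (adjusted p = 0.148). At an unadjusted p under 0.05, 11 of the 13 were lower, as were 9.9% of all genes. Of 16 stress effectors 2 fell and the median was -0.33. These were Eif4ebp1, a repressor of cap-dependent translation, at 17.2 and 18.5 CPM in YKL against 78.1 and 80.2 CPM in DMSO (4.43-fold lower, adjusted p = 0.00326), and Fgf21, a stress-induced hormone, at 4.86 and 4.59 CPM in YKL against 13.3 and 27.0 CPM in DMSO (adjusted p = 0.0261). The call of Fgf21 ended without YKL replicate 1 (adjusted p = 0.109) or YKL replicate 2 (0.133). Vegfa, Ndrg1 and Ddit4, of this list and named above, differed more between the DMSO libraries than between the groups. So did some other genes of the list, among them Vldlr, Stc2 and Rragd, also named after their values were seen. Of the 16 called targets, Aldh18a1, Slc6a9, Slc7a3 and Eif4ebp1 were called in all 13 refits. The looser threshold is not counted, since a called gene must pass it. Every other call among the 16 ended with a YKL library left out.

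**Figure D4:**
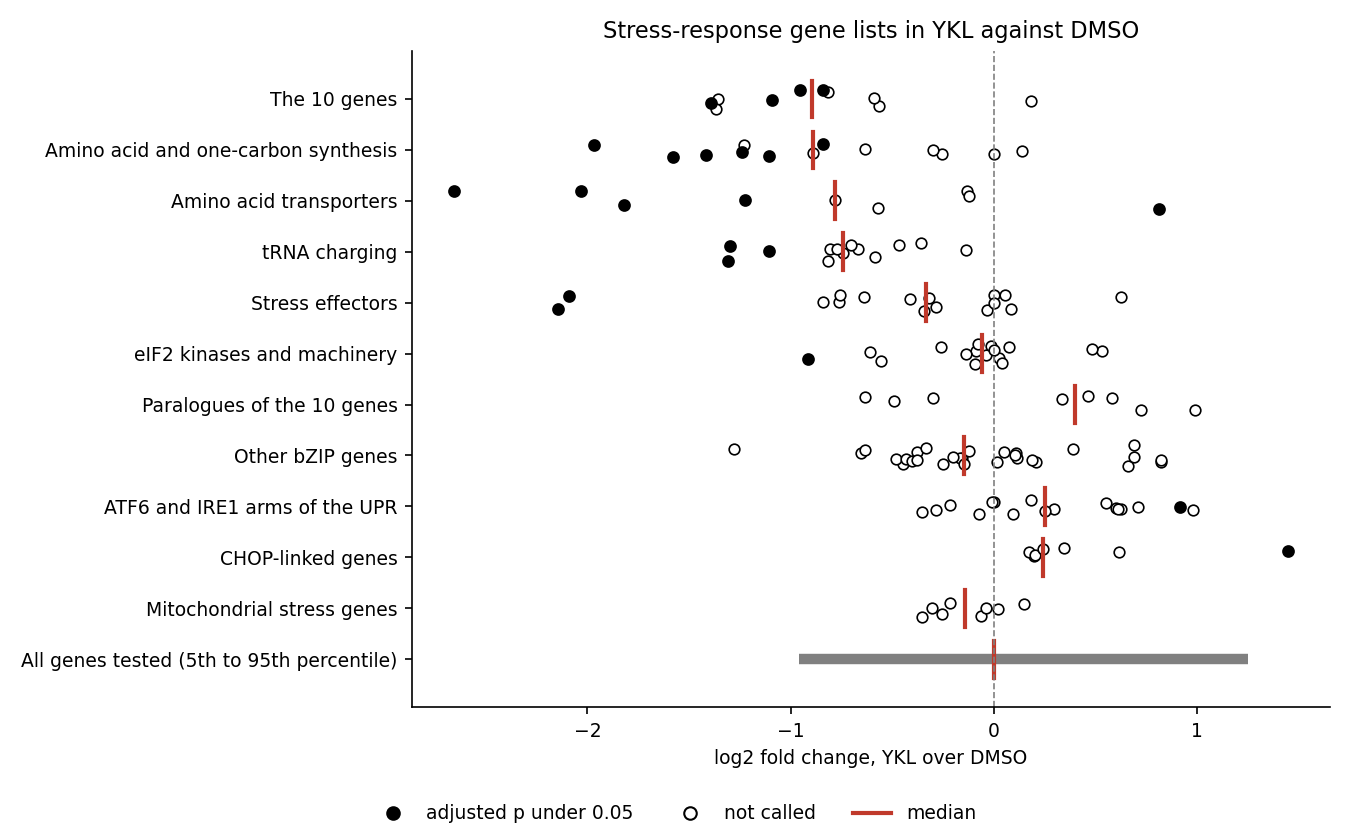
Log2 fold change, YKL over DMSO, of every tested gene of each list (points, filled where called) with the list median (red line), and below them the range of all genes tested from the 5th to the 95th percentile (grey bar, with their median in red). The 10 genes and the lists for amino acid synthesis, transport and tRNA charging have medians from -0.90 to -0.74, and the remaining lists from -0.33 to 0.40.

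Genes that act upstream of Atf4 had a median near 0. Of 16 tested genes for the eIF2 kinases and the eIF2 machinery 1 fell and 0 rose, with a median of -0.06. The one that fell was Eif2s2, which encodes the beta subunit of eIF2, at 65.6 and 68.2 CPM in YKL against 138 and 114 CPM in DMSO (log2 fold change -0.91, adjusted p = 0.0342), a call that ended without YKL replicate 1 (adjusted p = 0.206) or YKL replicate 2 (0.191). At an unadjusted p under 0.05, 2 genes of this list were lower and 2 were higher, against 9.9% and 11.3% of all genes.

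The other branches of the unfolded protein response, which run through ATF6 and IRE1, had a median on the other side of 0. Of 17 tested genes 0 fell and 1 rose, with a median of 0.25, where 2.1% of all genes were called higher. At an unadjusted p under 0.05, 7 were higher and 0 lower, against 11.3% and 9.9% of all genes. The one that rose was Sdf2l1, an endoplasmic reticulum chaperone component, at 122 and 104 CPM in YKL against 57.0 and 62.7 CPM in DMSO (log2 fold change 0.92, adjusted p = 0.0334). This call ended without YKL replicate 1 (adjusted p = 0.206) or YKL replicate 2 (0.108). Whether this list differed from the ATF4 targets was not tested.

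Among 7 genes linked to CHOP, 1 rose and 0 fell, with a median of 0.24, where 2.1% of all genes were called higher. At an unadjusted p under 0.05 by edgeR, 2 were higher and 0 lower, against 11.3% and 9.9% of all genes. The one that rose was Pmaip1, which encodes the pro-apoptotic protein NOXA and is also a target of p53. It had 50.4 and 46.0 CPM in YKL, against 13.3 and 22.1 CPM in DMSO (log2 fold change 1.45, adjusted p = 0.0264). Its call ended without YKL replicate 1 (adjusted p = 0.107) or YKL replicate 2 (0.091). Among 8 mitochondrial stress genes none was called by edgeR, nor had any an unadjusted p under 0.05. The most abundant, Hspa9 and Hspd1, both mitochondrial chaperone genes, had log2 fold changes of -0.35 and 0.15, the sign of Hspd1 turning without DMSO replicate 2 (-0.040), a fit in which Hspa9 was called.

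Paralogues and other basic leucine zipper (bZIP) factors were not called. Of 8 tested paralogues of the 10 genes, 2 were lower and 1 higher at an unadjusted p under 0.05, against 9.9% and 11.3% of all genes. None of the 8 was called by edgeR, and their median was 0.40. The most abundant were Ppp1r15b, the constitutive counterpart of Ppp1r15a, at 126 and 125 CPM in YKL against 208 and 144 CPM in DMSO (adjusted p = 0.218), and Cebpa, another C/EBP gene, at 49.7 and 75.8 CPM in YKL against 28.6 and 47.3 CPM in DMSO (adjusted p = 0.216), both called without DMSO replicate 2. Of 29 tested bZIP genes outside the 10, 4 were lower and 4 higher at an unadjusted p under 0.05, against the same shares of all genes. None of the 29 was called by edgeR, and their median was -0.15. The most abundant of these, Tef and Mafg, had log2 fold changes of -0.15 and -0.20, the sign of Tef turning without DMSO replicate 1 (0.043) or without YKL replicate 2 (0.018).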

How the data were processed

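RNA from 2 YKL and 2 DMSO libraries of RPP631 cells was analysed from the deposited raw counts per gene. Per the submitters' processing notes, the tools were STAR 2.5.2b, featureCounts and DESeq2 and the build was mm10. The strand setting of the counting is not given in the sources used here. The authors' deposited DESeq2 table (mean signal, log2 fold changes with errors, a test score, p-values and adjusted p-values) was used only where it is named. Symbols came from the deposited gene annotation, coordinates and exon overlaps from the deposited count table, and promoter sequences from RefSeq (GRCm38.p6, all 10 genes matched).

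Counts were filtered with filterByExpr (minimum count 10, minimum total 15), scaled by TMM and tested with edgeR 4.0.16 in R 4.3.3 (quasi-likelihood test, robust prior, 2 residual degrees of freedom, Benjamini-Hochberg over 16749 genes). Standard errors were obtained as the size of the log2 fold change over the root of the F statistic. The procedure was run on simulated data with the same dispersion for each gene in both groups. That run therefore does not cover the unequal spread of the YKL and DMSO pairs. Alternatives were other scalings, other filters, a block for the replicate number, a prior that is not robust, a restriction to protein-coding genes, DESeq2 1.42.0, an adjusted p under 0.1, and each library left out in turn. With an arm of 1 library, that library is assumed to vary like the other group.

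The genes and lists were chosen with earlier results of these data known. Named are all 10 genes, every called gene of each list or its 2 most abundant, and the 5 genes nearest to Atf4, apart from those described as chosen later. Figures were drawn with matplotlib 3.10.9. One neuroendocrine marker of the list is not reported here.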

Additional observations from a re-analysis of the deposited data

How the results depend on the processing

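Of the 10 genes, 4 were called. With total count scaling, upper quartile scaling or no robust prior this became 1 (Asns), without the filter 7, by DESeq2 7 and at an adjusted p under 0.1 8. With each library left out it ranged from 0 to 9. With the replicate block it was 6, adding Atf4 and Ppp1r15a. The numbers are not shown to pair libraries: with 2 pairs, the differences between replicates 1 and 2 in the YKL and DMSO groups correlated at 0.152 over genes. For all genes, 593 were called: 169 with total count scaling, 331 with upper quartile scaling, 1740 without the filter, 1387 with the replicate block, 236 without the robust prior, 1460 by DESeq2, 1364 at an adjusted p under 0.1, and 71 to 2453 with a library left out. Other ATF4 targets called numbered 16, but 29 without the filter, 25 by DESeq2, 24 with the replicate block and 4 to 34 with a library left out. In the other lists 3 were called, 0 with total count scaling or no robust prior (edgeR, 24 and 22 at an unadjusted p under 0.05), 8 without the filter, 7 with the replicate block, 6 at an adjusted p under 0.1 and 0 to 14 with a library left out. With a library left out, log2 fold changes ran from -0.14 to 0.55 for Cebpb, from -0.040 to 0.33 for Hspd1 and from -0.35 to 0.043 for Tef. Cebpb, at 166 to 278 counts, was the least deeply read of the 10. The cause of these changes was not tested.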
